A study of Rattus norvegicus with 10 samples.

Results

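The bile acid sensing receptors are the nuclear receptors and G protein coupled receptors through which a cell detects bile acids, with the corepressor that the best known of them induces. The 7 genes Nr1h4, Nr0b2, Gpbar1, Nr1i2, Nr1i3, S1pr2 and Chrm3 were taken by symbol from the 23422 genes of the deposited count table. The rule uses no measured value, but the set was put together with earlier results of these data known. The libraries hold RNA of distal colon epithelial cells from male Wistar Munich rats, whose age is not stated in the labels used here. All rats had 3 days in metabolic cages on standard chow. The control rats then stayed on this chow, while the cholate rats received it with 1% w/w sodium cholate for 10 days. Each diet began with 6 rats, and the 5 per diet that gave the most concentrated RNA were sequenced, so rats were not sampled at random. The libraries, 1 per rat, are those of rats 1, 2, 5, 6 and 9 on control chow and of rats 3, 4, 7, 8 and 11 on cholate.

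Bile acids act as hormones as well as detergents. Nr1h4 encodes FXR, the main nuclear receptor for bile acids, which works as a heterodimer with RXR and in the intestine induces bile acid binding and export proteins and the corepressor SHP, encoded by Nr0b2. Nr1i2 encodes PXR and Nr1i3 encodes CAR, xenobiotic receptors of which PXR also answers to toxic bile acids such as lithocholic acid. Gpbar1 encodes TGR5, a surface receptor that raises cyclic AMP, S1pr2 a sphingosine 1-phosphate receptor that conjugated bile acids activate in rodent hepatocytes, and Chrm3 the muscarinic acetylcholine receptor that drives chloride secretion in the colon and also binds some conjugated bile acids. Cholate is the salt of cholic acid, a primary bile acid that gut bacteria convert to deoxycholic acid.

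Libraries held 14337356 to 45285762 counts. Levels are read counts per mega-count of library, after TMM scaling of library sizes for composition (CPM). Where no read was counted, counting error still allows 3 counts. On library totals before TMM scaling this is 0.0662 CPM in the largest library and 0.209 CPM in the smallest. Control rats 5 and 9 and cholate rats 8 and 11 stood apart on the first within-diet principal component, which took 71.5% of the within-diet variance, and rats 8, 9 and 11 had the 3 lowest totals. What sets these 4 libraries apart was not tested, and results are given below with them and for the 6 other rats (controls 1, 2 and 6, cholate 3, 4 and 7). Epithelial markers were high in every library: Epcam, an epithelial adhesion molecule, stood at 2425 ± 271.5 CPM (SD, n = 5) in controls and 2267 ± 371.9 CPM (n = 5) on cholate. The 14 colon epithelium markers summed to 18597 to 25123 CPM in controls and 29653 to 41058 CPM on cholate. Sums of the 12 enteroendocrine markers were 217.7 to 287.2 CPM and 306.3 to 566.4 CPM. Neither sum overlapped between diets, as held for 13.1% of single genes tested. The members of a list did not move together. Of the epithelial markers 11 had a log2 change above 0 and 3, Epcam among them, below 0. Of the 10 tested enteroendocrine markers 8 were above 0 and 2 below. In bulk RNA, fewer cells of a type and less RNA per cell cannot be told apart.

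None of the receptor genes passed the call rule on dietary cholate. Nr1h4, Nr1i2, Nr1i3, S1pr2 and Chrm3 had lower mean levels on cholate and Nr0b2 a higher one, but in every case the 5 cholate values overlapped the 5 control values. The FXR target genes for bile acid export and binding showed larger differences: Slc51b, which encodes the beta chain of the exporter that carries bile acids into the blood, rose from 10.3 ± 2.60 to 77.1 ± 37.2 CPM (SD, n = 5 per diet). Among neighbours of the receptors, Chrm1, the M1 muscarinic receptor, fell from 14.0 ± 0.353 to 7.42 ± 1.85 CPM at an adjusted p of 0.00901. Calls needed a fold change over 2 and an adjusted p under 0.01 in the edgeR quasi-likelihood test of 12385 genes. By this rule 0 of the 6 receptor genes tested were called, against 3.21% of all genes tested (1.10% higher and 2.12% lower). At an adjusted p under 0.05 the count was also 0, against 13.8%, and at an unadjusted p under 0.05 it was 1, Chrm3, against 29.0%. DESeq2 and limma-voom likewise called 0, against 886 of 14329 and 483 of 12385 genes. Gpbar1 did not pass the filter on low counts and was not in this test.

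Levels were compared between genes as TMM-scaled CPM per kilobase of coding sequence, the length given in the deposited table. In controls Nr1i2 had the highest level, 64.3 ± 15.2 CPM per kilobase (SD, n = 5), and Nr1h4 followed at 54.8 ± 6.50. These levels lay at percentiles 83.0 and 80.2 of the genes tested. Chrm3 at 6.16 ± 2.03 and Nr1i3 at 6.12 ± 2.78 CPM per kilobase came next. Nr0b2 stood at 2.27 ± 0.811, S1pr2 at 1.47 ± 0.390 and Gpbar1 at 0.138 ± 0.0762 CPM per kilobase. The ranges over the 5 controls overlapped between neighbours in this order, except for the steps from Nr1h4 (47.8 to 62.0) down to Chrm3 (3.69 to 8.32) and from S1pr2 (0.874 to 1.85) down to Gpbar1 (0.0377 to 0.248). On cholate Nr1i3 (4.30 ± 3.59) and Chrm3 (3.95 ± 0.760) changed places, within overlapping ranges, and the order was otherwise as in controls. Coding sequence lies in 1 part in Gpbar1, S1pr2 and Chrm3 and in up to 13 parts in Nr1i3. The aligner used by the authors does not split reads over introns by design, and what that does to levels compared between these genes was not tested.

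**Figure D1:**
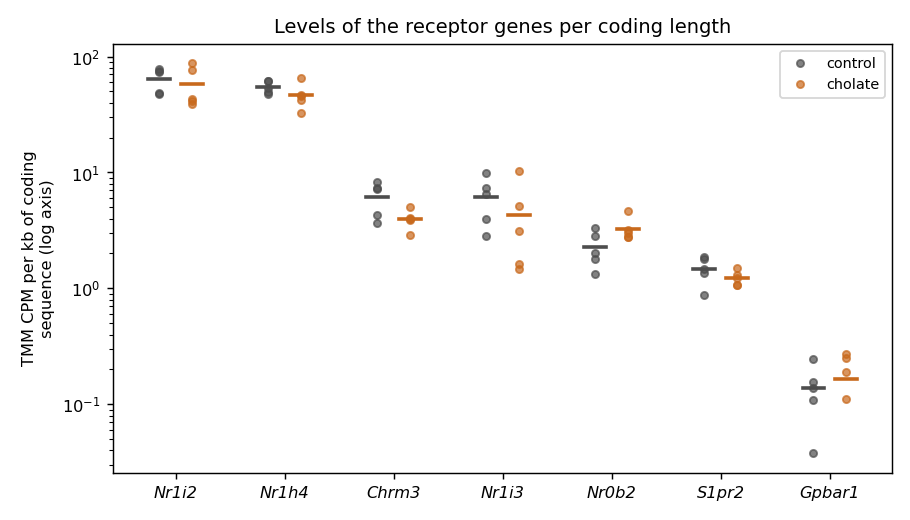
Level of each receptor gene in TMM CPM per kilobase of coding sequence on a log axis, with 1 point per rat and a bar at the mean of 5 rats per diet (grey control, orange cholate). Nr1i2 and Nr1h4 lie about an order of magnitude above Chrm3 and Nr1i3. Cholate rat 11, with 0 Gpbar1 counts, cannot be drawn on this axis.

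Nr1h4 (FXR, Entrez 60351, rn6 chr7:30003429-30162095, minus strand) stood at 86.8, 77.3, 98.6, 80.0 and 100.3 CPM in control rats 1, 2, 5, 6 and 9 and at 52.6, 68.5, 75.3, 105.5 and 73.4 CPM in cholate rats 3, 4, 7, 8 and 11. Of the cholate rats, 4 lay below every control and rat 8 lay above every control. The log2 change was -0.24 (SE 0.18, 95% interval -0.62 to 0.15, adjusted p = 0.413), a fold of 0.85 with an interval of 0.65 to 1.11. An exact two-sided permutation test over all splits of the rats, whose smallest possible p is 0.00794, gave p = 0.206 for the difference in CPM. With CPM on library size alone in place of TMM scaling, this difference was -18.0 CPM (exact permutation p = 0.0397).

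Nr0b2 (SHP, Entrez 117274, rn6 chr5:151776004-151779319, plus strand) was low, with 231 counts over the 5 controls and 346 over the 5 cholate rats. In the same order of rats, it stood at 1.58, 1.42, 2.61, 1.04 and 2.23 CPM in controls and 2.18, 2.34, 2.20, 3.63 and 2.51 CPM on cholate. All 5 cholate values were above the control median, but only rat 8 was above all controls. The log2 change was 0.53 (SE 0.29, 95% interval -0.11 to 1.18, adjusted p = 0.261), a fold of 1.45 with an interval of 0.92 to 2.26, and the exact permutation p was 0.0952. Among the 6 rats alone it was 0.77 (adjusted p = 0.0489), in a fit where 38.5% of all genes had an adjusted p under 0.05.

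**Figure D2:**
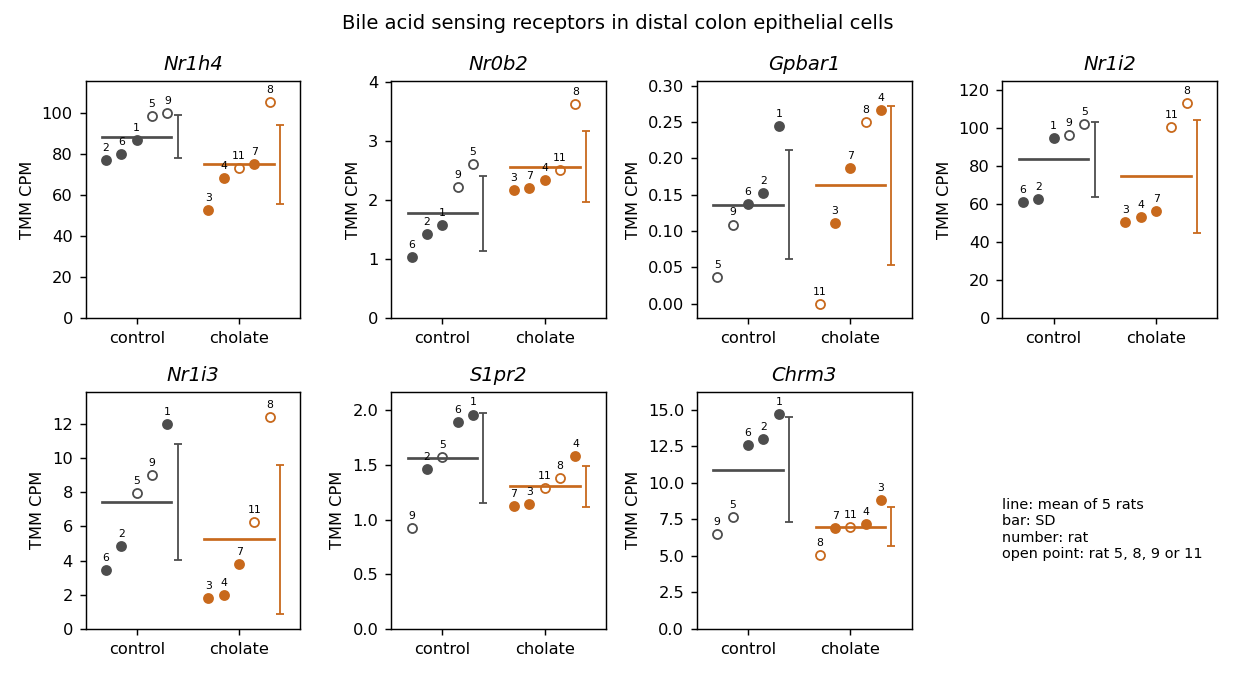
TMM-scaled CPM of the 7 receptor genes by diet, with 1 numbered point per rat, a line at the mean of 5 rats and a bar of 1 SD, on a separate axis for each gene. Open points are rats 5, 8, 9 and 11, which stood apart from the other libraries. The diets overlap in every panel.

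The ratio of Nr0b2 to Nr1h4 counts within a library does not depend on how libraries are scaled. It was 18.2, 18.3, 26.5, 13.0 and 22.2 Nr0b2 counts per 1000 Nr1h4 counts in the controls and 41.4, 34.2, 29.2, 34.4 and 34.1 in the cholate rats. The means were 19.6 ± 5.04 and 34.7 ± 4.37 (SD, n = 5), a ratio of 1.76, and the lowest cholate rat (29.2) lay above the highest control (26.5). This was the only pair of the 15 among the 6 tested receptor genes whose ratio did not overlap between diets. It was singled out after all 15 were seen, so no test is given. Of 12384 other genes, 16.9% had a ratio to Nr1h4 that did not overlap between diets, and in 14.3% the cholate rats were the higher, so a separation of this kind was common.

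**Figure D3:**
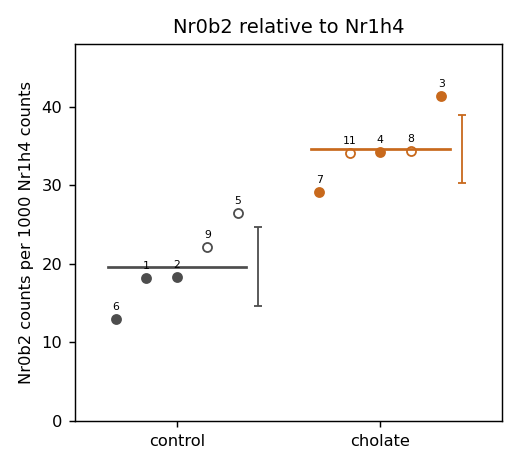
Nr0b2 counts per 1000 Nr1h4 counts in each rat by diet, with a line at the mean and a bar of 1 SD over 5 rats. Controls span 13.0 to 26.5 and cholate rats 29.2 to 41.4, and open points mark rats 5, 8, 9 and 11.

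FXR binds an inverted repeat of AGGTCA half-sites spaced by 1 base (IR-1), and the promoters of Fabp6, Slc51b and Nr0b2, all textbook FXR targets, are shown because Nr0b2 is one of the receptor set and the others had the largest log2 differences among the targets. The windows run from 250 bases before to 50 after the RefSeq start on build GRCr8, 5′ to 3′ along the gene. They are chr10:28569678-28569977 (minus strand) for Fabp6, chr8:74835060-74835359 (minus strand) for Slc51b and chr5:151062910-151063209 (plus strand) for Nr0b2. Capitals mark the best match to AGGTCANTGACCT, which reads the same on both strands.
Fabp6: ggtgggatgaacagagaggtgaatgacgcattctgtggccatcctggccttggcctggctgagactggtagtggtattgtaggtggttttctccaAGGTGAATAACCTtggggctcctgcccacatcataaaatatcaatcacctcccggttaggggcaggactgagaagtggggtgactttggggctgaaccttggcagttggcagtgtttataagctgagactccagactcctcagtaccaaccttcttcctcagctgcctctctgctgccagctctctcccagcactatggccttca
Slc51b: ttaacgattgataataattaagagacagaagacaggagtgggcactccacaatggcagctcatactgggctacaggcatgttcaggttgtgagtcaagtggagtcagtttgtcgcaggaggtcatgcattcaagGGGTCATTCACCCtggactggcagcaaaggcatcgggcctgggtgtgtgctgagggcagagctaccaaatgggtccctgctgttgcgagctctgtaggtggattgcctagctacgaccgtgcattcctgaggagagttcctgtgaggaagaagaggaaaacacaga
Nr0b2: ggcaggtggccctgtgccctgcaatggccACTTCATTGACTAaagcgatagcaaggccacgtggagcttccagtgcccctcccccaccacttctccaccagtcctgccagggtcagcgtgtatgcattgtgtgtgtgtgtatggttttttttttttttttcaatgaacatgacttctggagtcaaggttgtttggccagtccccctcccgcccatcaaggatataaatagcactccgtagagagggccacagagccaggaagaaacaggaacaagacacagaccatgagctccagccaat
The match had 2 mismatches in Fabp6 at -155 bases from the start and 3 in Slc51b at -116, while the best in Nr0b2 had 4 at -221. Of 33469 rat promoters in the table, 1.51% held a match with up to 2 mismatches, 12.4% with up to 3 and 57.7% with up to 4. The best Nr0b2 match within this window is thus of a kind most promoters have. Bases farther from the start were not searched, so these counts do not say whether Nr0b2 has a closer match there. For the receptor genes and FXR targets only the first listed window of each gene was used, while the 33469 include every window. Of these 22 windows, 3 held a match with up to 2 mismatches, 10 with up to 3 and 17 with up to 4. A closer match did not always come with a larger change: Vldlr, which rose, had 5 mismatches at best in the window used. Apoe, an apolipoprotein gene with a log2 change of 0.42 (adjusted p = 0.598), had 2. Among the receptor genes, Nr1i3 held a match with 2 mismatches at -92. Promoter entries were found for 6 of the 7 receptor genes, all but Nr1h4. A match in letters is a description and not a binding site.

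Of 22 FXR targets in the table, Nr0b2 included, 11 could be tested and 4 had no counts in any rat. Of the 11, 1 was called, higher, against 1.10% of all genes tested. At an adjusted p under 0.05, 4 were higher and 0 lower, against 6.48% higher and 7.28% lower among all genes tested. The median log2 change of the 11 was 0.53, against -0.01 over all genes tested. Slc51b stood at 14.3, 11.3, 7.83, 9.30 and 8.65 CPM in the controls and at 22.3, 57.7, 89.7, 114.5 and 101.5 CPM in the cholate rats, without overlap. A separation of that kind with cholate higher held for 6.30% of all genes tested. Its log2 change was 2.91 (SE 0.40, adjusted p = 0.00172), and 2.32 (adjusted p = 0.0199) among the 6 rats, which ends the call. Fabp6, the ileal bile acid binding protein, had 25 counts in controls and 202 on cholate, and rose by 2.84 on the log2 scale (SE 0.71, adjusted p = 0.0237). The partner chain of the exporter, Slc51a, rose by 2.13 (adjusted p = 0.0438) and Vldlr, the very low density lipoprotein receptor, by 1.43 (adjusted p = 0.0147). Among the 6 rats Slc51a had 1.25 (adjusted p = 0.276), whereas Fabp6 had 4.53 (adjusted p = 0.000984) and Vldlr 1.73 (adjusted p = 0.00498), both past the call rule in that fit, as were 7.93% of all genes. Fgf19, the intestinal hormone that FXR induces in the ileum, had 2 counts in controls and 12 on cholate and was not tested. Fabp6, Slc51a, Vldlr and Fgf19 were named after their values were seen.

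FXR, PXR and CAR work with RXR and with coactivators and corepressors, of which 20 of 21 could be tested. By edgeR 0 were called, against 3.21% of all genes tested, and 0 had an adjusted p under 0.05, against 13.8%. DESeq2 and limma-voom called 0, against 886 of 14329 and 483 of 12385 genes. At an unadjusted p under 0.05, 4 were lower and 0 higher, against 1787 and 1799 of the 12385 genes tested. The log2 change was below 0 in 19 of the 20, with a median of -0.25, while 6324 of the 12385 genes tested were below 0. It was below 0 in 15 of the 20 among the 6 rats, and in 15 without cholate rat 11. The 6-rat fit called 1 of the 20, higher, against 7.93% of all genes. Ncoa1, a coactivator, stood at 80.4 ± 15.5 CPM in controls and 54.4 ± 13.2 CPM on cholate (log2 change -0.56, adjusted p = 0.0824). Ncor1, a corepressor, stood at 393.5 ± 108.4 and 262.7 ± 60.9 CPM (-0.58, adjusted p = 0.116). Among the 6 rats, 9 of the list were lower and 1 higher at an adjusted p under 0.05, in a fit where 38.5% of all genes were, with Ncoa1 (-0.48, adjusted p = 0.00797) and Ncor1 (-0.58, adjusted p = 0.0017) among the lower. Rxra, the shared heterodimer partner, stood at 52.0 ± 13.4 and 47.9 ± 15.3 CPM (-0.12, adjusted p = 0.821).

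Nr1i2 (PXR, Entrez 84385, rn6 chr11:65022100-65058546, plus strand) stood at 94.7, 62.6, 101.8, 61.1 and 96.3 CPM in the controls and at 50.3, 53.2, 56.0, 112.9 and 100.1 CPM in the cholate rats. The values split within each diet, with rat 8 above all controls, rat 11 among the higher controls and rats 3, 4 and 7 below all controls. This was a log2 change of -0.16 (SE 0.27, 95% interval -0.75 to 0.43, adjusted p = 0.749), a fold of 0.89 with an interval of 0.59 to 1.34, and the exact permutation p was 0.627. Among the 6 rats it was -0.42 (adjusted p = 0.079).

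Nr1i3 (CAR, Entrez 65035, rn6 chr13:89585072-89591278, plus strand) varied most of the 6 tested receptor genes within a diet, with a coefficient of variation of 45.5% in controls and 83.6% on cholate. It stood at 12.0, 4.87, 7.94, 3.45 and 9.03 CPM in the controls and at 1.81, 1.97, 3.80, 12.4 and 6.23 CPM in the cholate rats, where rats 3 and 4 were below all controls and rat 8 above them. Its log2 change was -0.53 (SE 0.54, 95% interval -1.72 to 0.67, adjusted p = 0.577; exact permutation p = 0.405), a fold of 0.69 with an interval of 0.30 to 1.59. It was -1.14 without cholate rat 8 and -1.38 (adjusted p = 0.0682) among the 6 rats. Exons of Tomm40l on the opposite strand cover 130 of its 1219 coding bases (10.7%), and the strand setting of the counting is not given in the labels. Tomm40l stood at 15.6 ± 1.15 CPM in controls and 17.1 ± 2.08 CPM on cholate (log2 change 0.13, adjusted p = 0.58).

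Of 33 PXR and CAR targets, mostly enzymes and transporters of drug metabolism, 12 had no counts and 16 could be tested. Of these 0 were called higher and 1 lower, against 1.10% and 2.12% of all genes tested. At an adjusted p under 0.05 the counts were 0 and 2, against 6.48% and 7.28%. The median log2 change was 0.18, against -0.01 over all genes tested. The call was Aldh1a1, a dehydrogenase that makes retinoic acid and is better known for that than as a drug enzyme, which fell from 257.5 ± 117.2 to 9.78 ± 5.44 CPM (log2 change -4.72, adjusted p = 0.000722). Cyp3a9, a cytochrome P450 of steroid and drug oxidation, fell from 734.1 ± 92.9 to 519.9 ± 53.8 CPM (-0.50, adjusted p = 0.0209). Abcb1a, which encodes the drug exporter P-glycoprotein, stood at 86.2 ± 35.1 and 199.8 ± 170.7 CPM (1.21, adjusted p = 0.16), its SD on cholate close to its mean.

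A list of further ligand-activated receptors was counted beside them. It held nuclear receptors for bile acids, sterols, steroids, retinoids or fatty acids, and also Ahr, which is not a nuclear receptor. Of the 17 genes 12 were tested. By edgeR 0 were called, against 3.21% of all genes tested. DESeq2 and limma-voom each called 1, lower, against 594 of 14329 and 339 of 12385 genes. At an unadjusted p under 0.05, 4 were lower and 0 higher, against 1787 and 1799 of 12385 genes. At an adjusted p under 0.05, 3 were lower and 0 higher, against 7.28% and 6.48% of all genes tested. The median log2 change was -0.34, against -0.01 over all genes tested. The retinoic acid receptor Rara fell from 37.9 ± 6.59 to 17.7 ± 8.46 CPM (-1.10, adjusted p = 0.0335), and its paralog Rarg, named after its values were seen, by 0.94 on the log2 scale (adjusted p = 0.0354). Vdr, the vitamin D receptor, which lithocholic acid also activates, stood at 195.9 ± 60.6 and 98.5 ± 39.3 CPM (-0.99, SE 0.30, adjusted p = 0.0514), and at -0.93 (adjusted p = 0.00367) among the 6 rats.

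Gpbar1 (TGR5, Entrez 338443, rn6 chr9:81555914-81560931, plus strand) was the lowest of the receptor genes. It had 7, 4, 1, 5 and 2 counts in the controls and 3, 13, 7, 4 and 0 in the cholate rats, or 0.136 ± 0.0754 CPM and 0.163 ± 0.110 CPM (SD, n = 5). With no filter its log2 change was 0.33 (SE 0.65, adjusted p = 0.791), and the exact permutation p was 0.643, so no difference was detected with 19 and 27 counts per diet. TGR5 is best known in the gut from enteroendocrine L cells. Beside its level Gcg, the glucagon-like peptide precursor of those cells, rose from 67.2 ± 11.6 to 177.4 ± 36.1 CPM (1.40, adjusted p = 0.00129). Of 10 tested enteroendocrine markers 5 were called higher, against 1.10% of all genes tested. Others of the list hardly changed, among them Chga and Chgb, with log2 changes of -0.08 and 0.02 (adjusted p = 0.840 and 0.953).

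Of 34 genes of the cyclic AMP pathway, 29 were tested and 0 were called by edgeR, against 3.21% of all genes tested. DESeq2 and limma-voom each called 1, lower, against 594 of 14329 and 339 of 12385 genes. At an unadjusted p under 0.05, 1 was higher and 4 lower, against 1799 and 1787 of 12385 genes. At an adjusted p under 0.05, 1 was higher and 3 lower, against 6.48% and 7.28% of all genes tested. The median log2 change was -0.14, against -0.01 over all genes tested. Pde4a, a phosphodiesterase that breaks down cyclic AMP, fell from 15.7 ± 2.61 to 7.87 ± 1.77 CPM (-1.0, SE 0.19, adjusted p = 0.00789), at the fold limit but not past it. Pde8a, another, fell from 63.1 ± 5.34 to 44.2 ± 3.75 CPM (-0.51, adjusted p = 0.0142). The adenylyl cyclase Adcy1 fell from 5.69 ± 2.19 to 1.17 ± 0.852 CPM (-2.24, adjusted p = 0.0147), whereas the phosphodiesterase Pde4c rose by 0.73 (adjusted p = 0.0452), both named after their values were seen. Gnas, the stimulatory G protein subunit, stood at 320.5 ± 52.8 and 354.6 ± 91.1 CPM (0.15, adjusted p = 0.655).

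S1pr2 (Entrez 29415, rn6 chr8:21984914-21995806, minus strand) stood at 1.96, 1.46, 1.57, 1.89 and 0.925 CPM in the controls and at 1.14, 1.58, 1.12, 1.38 and 1.29 CPM in the cholate rats, with 222 and 189 counts in all. Control rat 9 was the lowest of the 10, and 4 of the 5 cholate rats lay below the control median. S1pr2 had a log2 change of -0.26 (SE 0.26, 95% interval -0.83 to 0.31, adjusted p = 0.555), a fold of 0.83 with an interval of 0.56 to 1.24, and the exact permutation p was 0.254. S1pr2 had the most counts of the 5 sphingosine 1-phosphate receptor genes on either diet, without regard to length. S1pr4 had 35 and 110 counts, S1pr5 had 5 and 9, S1pr1 had 9 and 74, and S1pr3 had 0 and 4 in controls and cholate rats. Cholate rat 4 alone stood at 1.27 CPM for S1pr1, against 0 to 0.241 CPM in the other cholate rats. Of 22 tested genes of this pathway 0 were called by edgeR, DESeq2 or limma-voom, against 398 of 12385, 886 of 14329 and 483 of 12385 genes. At an unadjusted p under 0.05, 3 were higher and 1 lower, against 1799 and 1787 of 12385 genes. The median log2 change was 0.01. At an adjusted p under 0.05, 1 was higher and 0 lower, against 6.48% and 7.28% of all genes tested. It was Plpp2, a lipid phosphatase that dephosphorylates sphingosine 1-phosphate, which rose from 144.0 ± 27.4 to 226.4 ± 23.8 CPM (0.65, adjusted p = 0.0138). Rhoa, the small GTPase downstream of S1pr2, stood at 336.6 ± 29.4 and 412.6 ± 36.9 CPM (0.29, adjusted p = 0.0902).

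Chrm3 (M3 muscarinic receptor, Entrez 24260, rn6 chr17:63990599-64463222, minus strand) had the smallest p of the receptor genes. It stood at 14.7, 13.0, 7.65, 12.6 and 6.53 CPM in the controls and at 8.86, 7.19, 6.88, 5.07 and 6.98 CPM in the cholate rats. All cholate rats were below the control median, but only rat 8 was below all controls, since control rats 5 and 9 were as low as the cholate rats. The log2 change was -0.64 (SE 0.26, 95% interval -1.20 to -0.08, unadjusted p = 0.0295, adjusted p = 0.123), a fold of 0.64 with an interval of 0.44 to 0.95, and the exact permutation p was 0.0714. Without control rat 9 it was -0.78 (adjusted p = 0.0491). Among the 6 rats it was -0.79 (adjusted p = 0.00478), in a fit where 20.1% of all genes had an adjusted p under 0.01, and the fold stayed under 2.

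The M1 receptor gene Chrm1 stood at 14.1, 14.2, 14.2, 14.0 and 13.3 CPM in the controls and at 5.87, 6.74, 5.92, 10.2 and 8.35 CPM in the cholate rats. The diets did not overlap, as for 13.1% of the genes tested. Its log2 change was -0.92 (SE 0.18, adjusted p = 0.00901), short of the fold limit, and -1.16 (adjusted p = 0.000689) among the 6 rats. Per kilobase of coding sequence it stood at 10.1 CPM in controls, where Chrm3 stood at 6.16, while Chrm2, Chrm4 and Chrm5 had 5, 4 and 0 counts over the 10 rats. Of 22 tested genes of muscarinic and Gq signalling 0 were called by edgeR, against 3.21% of all genes tested. At an unadjusted p under 0.05, 2 were higher and 4 lower, against 1799 and 1787 of 12385 genes. DESeq2 called 1 higher and 1 lower, against 292 and 594 of 14329 genes. By limma-voom 1 was called, lower, against 339 of 12385 genes. At an adjusted p under 0.05, 1 was higher and 3 lower, against 6.48% and 7.28% of all genes tested. The median log2 change was -0.09, against -0.01 over all genes tested. Ache, which encodes acetylcholinesterase, fell from 54.5 ± 4.03 to 26.7 ± 10.2 CPM (-1.03, adjusted p = 0.0138). Itpr3, an inositol trisphosphate receptor that releases calcium, fell by 0.49 on the log2 scale (adjusted p = 0.0209), and the G protein subunit Gna15 rose by 1.53 (adjusted p = 0.0158), both named after their values were seen. Plcb3, Gnaq and Gna11, the phospholipase and G protein subunits between receptor and calcium, had log2 changes of -0.10, 0.00 and 0.11 (adjusted p = 0.61, 0.999 and 0.511).

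Cells outside the epithelium also carry muscarinic receptors and cholinergic genes. The 10 enteric neuron and glia markers summed to 4.07 to 9.78 CPM in controls and 2.19 to 3.19 CPM on cholate. The sums did not overlap, as held for 13.1% of single genes tested. Of 3 tested, 1 was called lower, against 2.12% of all genes tested. It was the receptor tyrosine kinase Ret, at 4.55 CPM in controls and 1.24 CPM on cholate, the highest mean of the 10 on either diet. The defining marker Nos1 had 0 counts, and Sox10 and S100b had 1 and 3 counts over all rats. The 8 smooth muscle markers summed to 171.0 to 261.1 CPM and 146.7 to 281.7 CPM, with Acta2 at 2 and 17 counts. Of 4 tested, 1 was called lower, against 2.12% of all genes tested. This was Des, which encodes the muscle filament desmin and fell from 38.2 to 4.50 CPM (-3.10, adjusted p = 0.000417). The other 3 were Myh11 at -0.86 (adjusted p = 0.0138), Mylk at 0.40 (adjusted p = 0.502) and Smtn at 0.11 (adjusted p = 0.668). The part of these cells in the values of Chrm3, Chrm1 and Ache was not tested.

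**Figure D4:**
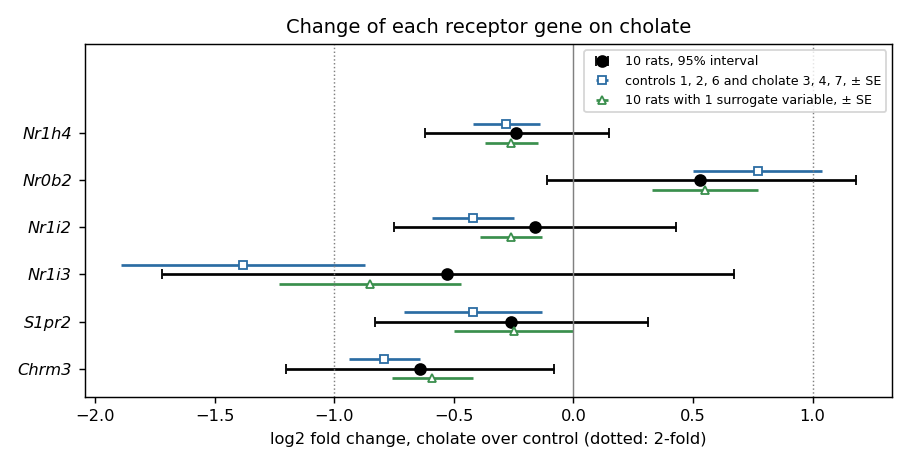
Log2 fold change of cholate over control for the 6 receptor genes tested. Black points carry 95% intervals from all 10 rats, blue squares are the 6 rats without rats 5, 8, 9 and 11 and green triangles add 1 surrogate variable to the 10 rats, both with 1 SE, and dotted lines mark a 2-fold change. Only the black interval of Chrm3 lies wholly on one side of 0.

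The intervals over all 10 rats bound what these data allow. For Nr1h4, Nr1i2 and S1pr2 the 95% interval excluded a 2-fold change in either direction. It included a 2-fold rise for Nr0b2, and a 2-fold fall for Nr1i3 and Chrm3. Leaving out rats 5, 8, 9 and 11 gave every tested receptor gene a log2 change farther from 0 than all 10 rats did. In that fit Nr0b2 and Chrm3, 2 of 6, had an adjusted p under 0.05, against 38.5% of all genes, and 0 were called, against 7.93%. With 1 surrogate variable in the fit of all 10 rats, Chrm3 alone did (-0.59, adjusted p = 0.0131), against 43.7% of all genes, and 0 were called, against 7.21%.

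**Figure D5:**
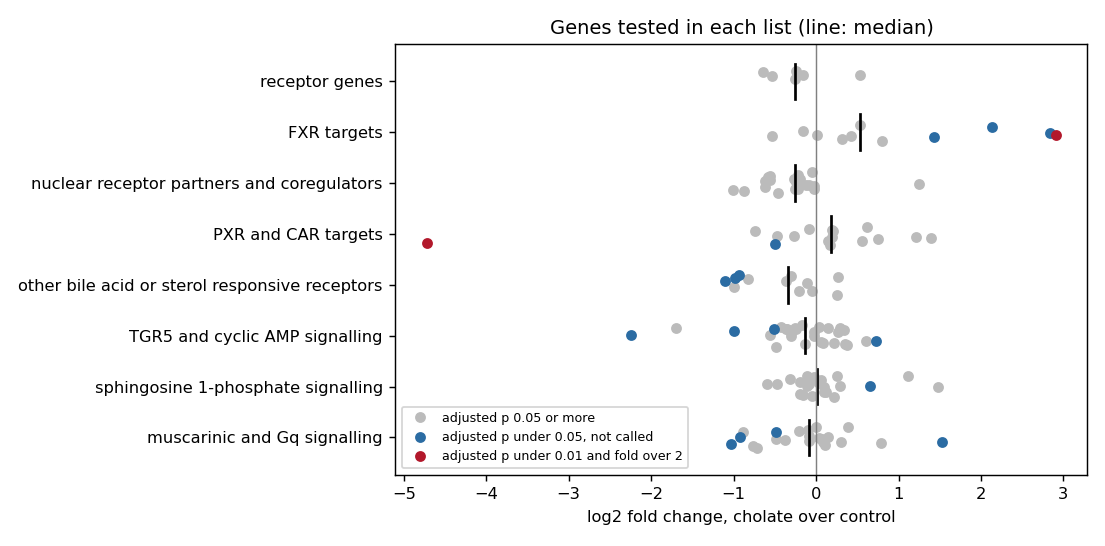
Log2 fold change of every tested gene in the receptor set and the 7 related lists, with 1 point per gene and a line at each median. Red points were called, blue points had an adjusted p under 0.05 and were not called, and grey points neither. The 2 red points are Slc51b at 2.91 among the FXR targets and Aldh1a1 at -4.72 among the PXR and CAR targets.

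The genes closest to each receptor gene within the diets are described here by Pearson r of log2(TMM CPM + 0.5) after subtracting each diet mean. It was taken over 10 rats and among 9274 genes. The 10 points share library depth and the split of rats 5, 8, 9 and 11 from the rest, so r among the 6 other rats is given second. The closest gene to Nr1h4 was Kifc1 (r = 0.99, then 1.00), followed by Ube2c (0.97, then 0.97) and Cdca8 (0.97, then 0.95). For Nr0b2 these were Sbf1 (0.97, then 0.93), Slc9a5 (0.97, then 0.95) and Exoc1 (0.96, then 0.72). Aasdh (0.98, then 0.95), Msrb2 (0.98, then 0.90) and Zfp628 (0.98, then 0.86) were closest to Nr1i2, and Mtmr14 (0.96, then 0.97), Anapc5 (0.96, then 0.98) and Fam151b (0.96, then 0.97) to Nr1i3. S1pr2 was closest to Nudc (0.92, then 0.91), Dnajb14 (0.91, then 0.98) and Sesn3 (0.88, then 0.86), and Chrm3 to genes that included Zmym2 (0.97, then 0.86) and Ptger4 (0.97, then 0.86). No gene was among the 3 closest of more than 1 receptor gene. With only 3 taken from 9274 genes, this does not show that the receptor genes varied differently from each other.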

How the data were processed

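Poly(A) RNA libraries from epithelial cells that EDTA released from the distal colon were stranded and sequenced on an Illumina HiSeq, per the labels' protocols. The submitters' processing notes name bcl2fastq 1.8.4, BWA 0.7.12-r1039 and the build rn6. How reads were counted, and with which strand setting, is not given in the labels. For each rat the deposited table gives raw counts and a normalized signal, which is CPM that the authors scaled by TMM with edgeR 3.16.2. That signal was only compared with the CPM computed here, which was within 2.01% of it. The deposited gene length equals the merged coding sequence of the deposited annotation in 100% of genes, so levels between genes are per coding length, not exon length as first planned. The call rule, with a 1% false discovery rate and a 2-fold limit, is the authors', per the series design text.

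Raw counts of 23422 genes, 6442 of them 0 in every library, were analysed in R 4.3.3 with edgeR 4.0.16 (filterByExpr, TMM, robust quasi-likelihood F test with diet as the only term) and Benjamini-Hochberg adjustment over 12385 genes. The standard error is the log2 change over the square root of F, and the 95% interval uses the t distribution with the fitted degrees of freedom. The common biological coefficient of variation was 34.3%. Replicates are separate rats. No 2 of the 45 library pairs were identical. Exact permutation tests were two-sided, on CPM. Alternatives were RLE, upper quartile and library size scaling, no filter, a mean of at least 5 CPM, DESeq2 1.42.0, limma-voom 3.58.1, each rat left out, and an adjusted p under 0.05 with no fold limit. The 6-rat fit and 1 surrogate variable (sva 3.50.0) were added after seeing the data. The fit was tested on simulated counts.

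The members and all lists were chosen with earlier results of these data known. Beside the members, the text names from each pathway list the called genes (up to 4) or else the 2 with the smallest adjusted p, the relatives S1pr1, S1pr3, Chrm1, Rxra and Vdr, and the 3 genes most alike to each member of at least 1 CPM, among genes of at least 5 CPM. Others were named after their values were seen: Epcam, Apoe, Gcg, Chga, Chgb, Ret, Des, Myh11, Mylk, Smtn, Abcb1a, Cyp3a9, Tomm40l, Gnas, Plcb3, Gnaq, Gna11, the remaining sphingosine 1-phosphate and muscarinic receptors, and those so described. Results for some genes that this rule or the marker lists take are not reported here. Promoter windows are from RefSeq (GRCr8, 33469 windows of 300 bases), searched on both strands, counting mismatches at the fixed letters.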

Additional observations from a re-analysis of the deposited data

Results flagged for a closer look

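Of 46 groups of 5 rats examined, 6 had a rat whose distance to its nearest neighbour exceeded 0.71 of the whole range of the group, Dixon's 95% limit, which chance passes in about 1 group in 20. Cholate rat 8 had the highest Nr0b2, at 3.63 CPM, while the other cholate rats lay between 2.18 and 2.51 CPM. Control rat 9 had the highest Rara, at 49.4 CPM, against 32.4 to 36.1 CPM in the other controls. The same rat had the lowest Chrm1 of the controls, at 13.3 CPM, against 14.0 to 14.2 CPM, a small gap in a group that varied little. Cholate rat 11 had the highest Pde4a of the cholate rats, at 10.9 CPM, against 6.53 to 7.75 CPM. Cholate rat 4 stood at 1.27 CPM for S1pr1, with the other cholate rats at 0 to 0.241 CPM, and at 0.0821 CPM for S1pr3, with the others at 0. Rats 8, 9 and 11 are among the 4 that stood apart from the other libraries, and rat 4 has the deepest library.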

How the results depend on the processing

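No receptor gene was called, and none changed direction, in any of 113 alternatives for their log2 changes. Over the fits that left out 1 rat each, the log2 change ran from -0.39 to -0.13 for Nr1h4, 0.39 to 0.70 for Nr0b2, -0.37 to -0.05 for Nr1i2, -1.14 to -0.28 for Nr1i3, -0.41 to -0.17 for S1pr2 and -0.78 to -0.51 for Chrm3. Adjusted p over all alternatives ran from 0.00478 to 0.284 for Chrm3 and from 0.0489 to 0.459 for Nr0b2. The difference in Nr1h4 CPM was -18.0 with library size alone (exact permutation p = 0.0397), where TMM scaling gave p = 0.206.

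Over all genes 398 were called. The count was 242 at a mean of at least 5 CPM, 886 by DESeq2, 1003 among the 6 rats, 893 with 1 surrogate variable and 1704 at an adjusted p under 0.05 with no fold limit. Leaving out 1 rat gave 168 (without control rat 2) to 450 (without control rat 9). The cause was not tested. Among FXR targets DESeq2 called 4, the 6 rats 2 and the surrogate variable 3, where the 10 rats gave 1. Over all genes DESeq2 called 886 of 14329. The 6 rats gave 7.93%, the surrogate variable 7.21% and the 10 rats 3.21% of all genes tested. Slc51b and Aldh1a1 were called in each of the 10 fits without 1 rat. An adjusted p under 0.05 was kept in 9 of these fits by Cyp3a9, in 6 by Fabp6 and Itpr3, in 4 by Rara and Rarg, in 3 by Pde4c, in 2 by Slc51a, and in all 10 by others, among them Vldlr, Pde4a, Pde8a, Adcy1, Plpp2, Chrm1, Ache and Gna15. Counts per gene limit Gpbar1 most, with 46 counts over 10 libraries. No paired analysis was possible because every rat number occurs in a single diet.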
